A study of Danio rerio with 28 samples.

Results

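The change in gene expression between 3 and 4 days post fertilization (dpf) was followed in zebrafish embryos kept in 17β-estradiol (E2), the main estrogen of vertebrates. The 8 arrays labelled 4 dpf with E2 (replicates 1 to 4) and 3 dpf with E2 (replicates 1 to 4) were taken from the 28 arrays of the series, which also held E2 embryos of 1 and 2 dpf and vehicle embryos of all 4 days. Each array was hybridized with RNA from 1 pool of 30 whole wild-type embryos of the strain DZ. The embryos of the 4 dpf E2 group were kept in 1 µM E2 from 3 hours post fertilization (hpf) and collected at 104 hpf, and those of the 3 dpf E2 group were kept in the same way and collected at 72 hpf. The E2 was given in its vehicle, 0.1% dimethylsulfoxide (DMSO), and the medium was renewed daily. The 4 dpf DMSO and 3 dpf DMSO groups (4 arrays each) had the vehicle alone. Like the other arrays of the series they entered the normalization and the fit. Their changes are given for comparison with embryos without E2. Each pool mixed the embryos of several breeding pairs, and a whole-embryo pool gives no tissue of origin, so that fewer cells of a type and less RNA per cell cannot be told apart. The 2 collections lay 32 h apart, which is 8 h more than a whole day, and age and clock hour therefore cannot be told apart either. E2 had also acted for longer in the older embryos. The study, with wild-type embryos of another strain, measured a markedly higher uptake of E2 from the medium at 4 dpf than at 3 dpf. Age, length of exposure and uptake cannot be told apart here.

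Between these days a zebrafish embryo becomes a larva that can feed. The hatching gland, whose enzymes soften the egg envelope, is used up. The pancreas begins to fill with digestive enzymes, the intestinal lining becomes absorptive, the liver secretes plasma proteins, and the retina becomes able to see. Estrogen acts mainly through nuclear receptors that bind DNA, and in egg-laying vertebrates the liver answers it with vitellogenins, the yolk precursor proteins that adult females load into their eggs. In the brain of teleosts it raises the aromatase of radial glia.

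Values are log2 signals after quantile normalization over the 28 arrays, and the change is the signal at 4 dpf with E2 minus that at 3 dpf with E2, so that a change of 1 is a fold change of 2. It was fitted with limma to all 28 arrays with the replicate number as a block, and its standard error (SE) and p-value come from this fit, the p-value after Benjamini-Hochberg adjustment over 43603 probes. A gene rose or fell where this adjusted p was under 0.05. Where a gene had several probes the brightest was taken, and a pair is the 4 dpf and the 3 dpf array of 1 replicate number. Signals of different probes are not compared, since the brightness of a spot depends on its sequence.

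Replicate 1 of the 3 dpf E2 group stood apart from the other arrays. On it 96.1% of the spots were well above background, against 72.3% to 73.8% on the other 3 arrays of its group and at most 73.8% on any other of the 28 arrays. Its rank correlation was highest with an array of 2 dpf E2 embryos (rho 0.908), whereas each of the other 7 arrays was nearest to an array of its own day (rho 0.965 to 0.991). Several digestive enzyme genes (ctrb.1, ctrb.2, ctrb.3, cel.2 and ela3l) were lower on it, and the globin hbbe3 was higher on it, than on the other 3 dpf E2 arrays. Other digestive enzyme genes did not follow. The amylase gene amy2a and its relative amy2al1 were highest on it, and prss59.1 and cpa1 lay within the range of the other 3 dpf E2 arrays. Replicate 4 of the 4 dpf E2 group was the array with the fewest spots well above background, 58.1%, against 63.9% to 72.4% on the other 3 arrays of its group, and 529 of its spots were marked as outliers and left out of the fit. The comparison was therefore made a second time without the pair of replicate 1, with the remaining 26 arrays normalized anew. The arrays of replicate 1 lay on 1 slide. In replicates 2, 3 and 4 the arrays of the 2 days lay on different slides, and those of replicate 2 were also scanned in different batches, so that within these pairs day and slide cannot be told apart.

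In E2 embryos 2765 of 43603 probes rose (6.34%) and 2965 fell (6.8%) at 4 dpf against 3 dpf, 13.1% of all probes together. Changes of at least 2-fold were found for 1533 of the probes that rose and for 671 of those that fell. Without the pair of replicate 1, 2469 probes rose (5.66%) and 3103 fell (7.12%). The calls of both fits shared 2013 probes that rose (4.62%) and 1971 that fell (4.52%), and 1746 of the 5730 calls were lost without that pair. Leaving out only replicate 4 of the 4 dpf E2 group gave 2275 rises and 1866 falls. In a fit of the 8 arrays alone 250 probes were called, 13 of the 15 exocrine pancreas genes, 4 of 14 intestinal genes and 4 of 10 estrogen markers still rose, 2 of 30 clock genes fell and 0 rose, and 0 genes of vision, of DNA replication and mitosis, of cholesterol synthesis or of the glucocorticoid axis were called. The medians of these groups were of the same sign there. The median change of all probes was -0.05, with a median SE of 0.28. Names were found for 10986 genes, of which 1252 rose (11.4%) and 1110 fell (10.1%), and without the pair of replicate 1 1012 rose (9.21%) and 1098 fell (9.99%). Both fits called 936 of these genes as rising (8.52%) and 794 as falling (7.23%). These shares are the background for the gene groups described in the following. The pair of replicate 1, which was not used in the second fit, can be set against it. Of the 2469 probes that rose without it, 85.5% were higher at 4 dpf in this pair, and of the 3103 that fell, 66.7% were lower at 4 dpf in it, while 50.3% of all probes were higher at 4 dpf in the same pair.

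The steepest rises belonged to digestive enzymes. By the rule for naming genes (called in both fits, the same direction in 4 of 4 pairs, well above background on every array of at least 1 day) the largest was c6ast4, which encodes a protease of the astacin family. Its signal was 12.87, 12.28, 13.55 and 13.68 on the 4 dpf E2 arrays, against 0.94, 1.60, 3.02 and 1.70 on the 3 dpf E2 arrays, where it was well above background on 2 of 4 arrays. The change was 11.28 (SE 0.55, adjusted p = 5.04e-11), and 7.11 after the normexp background correction, which raises dim signals and so makes changes from or to a dim day smaller. The chymotrypsinogen genes ctrb.1, ctrb.2 and ctrb.3, which are near copies of each other and whose probes may share signal, rose too. For ctrb.2 the signal was 12.33, 13.14, 13.72 and 13.55 on the 4 dpf E2 arrays, against 0.90, 4.60, 4.22 and 4.21 on the 3 dpf E2 arrays. Here replicate 1 of 3 dpf was far below the other 3 arrays, and the change was 9.70 with it and 9.22 without its pair. The copies ctrb.3 and ctrb.1 rose by 9.47 and 7.97. The trypsinogen-like gene prss59.1 had 13.65, 13.92, 13.96 and 13.94 on the 4 dpf E2 arrays, against 4.26, 6.54, 4.84 and 4.11 on the 3 dpf E2 arrays (change 8.93, SE 1.07, adjusted p = 1.07e-05). For none of these genes did the 2 days overlap.

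Among the other large rises were cel.2 (8.17), a carboxyl ester lipase that splits dietary lipids, ctrl (8.00), another chymotrypsin-like protease, and ela3l (7.78), an elastase. For cel.2 the signal was 11.06, 11.04, 11.49 and 11.70 at 4 dpf with E2, against 1.35, 3.41, 4.66 and 3.18 at 3 dpf with E2. The intestinal bile acid binding protein fabp6 had 13.94, 13.92, 14.61 and 14.38 on the 4 dpf E2 arrays, against 0.853, 4.195, 7.747 and 6.674 on the 3 dpf E2 arrays. The younger embryos spread widely here, and the change of 9.35 (SE 0.89, adjusted p = 5.53e-07) was 8.15 without the pair of replicate 1. The study lists fabp6 among the genes lowered by E2 at 3 dpf, and its change with DMSO was 6.58. The chitinase chia.2 (7.81), LOC100535672 (8.24), si:dkey-14d8.6 (7.90) and zgc:153968 (7.26) completed this group of 15 together with the vitellogenins vtg4 (8.66) and vtg3 (7.26), which are described further on. Other probes changed by 5.86 for cel.2, 7.28 for fabp6, 7.15 and 7.21 for ela3l, and 5.32 for vtg3.

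The steepest falls belonged to the hatching gland, to red blood cells and to the clock. The hatching enzyme gene he1.1 had 4.59, 3.67, 0.40 and 0.46 on the 4 dpf E2 arrays, of which 2 were well above background, against 11.35, 10.85, 8.77 and 7.44 on the 3 dpf E2 arrays. It fell by 7.32 (SE 0.72, adjusted p = 9.72e-07). Its near copy he1.2 had 2.71, 0.60, 1.77 and 0.74 at 4 dpf with E2, where 1 array was well above background. At 3 dpf with E2 it had 9.59, 9.67, 7.60 and 6.37. The change of he1.2 was -6.85, or -2.69 after the normexp correction. Both genes were higher in replicates 1 and 2 than in replicates 3 and 4 at 3 dpf, and he1.1 was so at 4 dpf as well. The embryonic beta globin hbbe3 had 6.61, 5.95, 4.61 and 4.35 at 4 dpf with E2, against 13.85, 12.34, 8.58 and 8.66 at 3 dpf with E2 (change -5.47, SE 0.71, adjusted p = 2.55e-05). It too was highest in replicates 1 and 2 on both days, without overlap between the days.

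In per1b, a repressor within the molecular clock, the replicates of each day lay close together. Its signal was 6.53, 7.30, 6.53 and 6.85 on the 4 dpf E2 arrays, against 12.09, 11.41, 11.58 and 11.59 on the 3 dpf E2 arrays, a fall by 4.86 (SE 0.19, adjusted p = 2.68e-12). The clock genes nr1d1 and tefa were also among the 15 largest falls (-2.85 and -2.03). So were gch2 (-3.27), a GTP cyclohydrolase of pteridine synthesis in yellow pigment cells, the heme synthesis enzyme alas2 (-2.24), the globin hbae4 (-2.03) and the T-box gene tbx16l (-2.51). The sodium-proton exchanger slc9a1b fell by 2.49. The remaining genes were zgc:173556 (-2.17) and amy2al1 (-2.01), by its symbol a relative of the amylase gene amy2a. With them fell dync2li1 (-2.00), a light intermediate chain of the motor that runs in cilia, and tgm1l4 (-2.00), which belongs to the transglutaminases. The signal of amy2al1 on the 3 dpf E2 arrays was 7.18 in replicate 1 and between 4.15 and 4.53 in the others, and without the pair of replicate 1 its change was -1.47. That of dync2li1 was 5.63 in replicate 1 and between 3.63 and 4.00 in the others, and its change was -1.50 without that pair. At 4 dpf zgc:173556 and dync2li1 were each well above background on 1 of 4 arrays, and slc9a1b and amy2al1 on 2 of 4. After the normexp correction slc9a1b changed by -0.67 and amy2al1 by -0.60. Under it zgc:173556 (-0.28, adjusted p = 0.19) and dync2li1 (-0.29, adjusted p = 0.0839) lost their calls. The changes of nr1d1 and tbx16l were -1.26 and -1.33 there. Other probes of these genes fell by less in tgm1l4 (-0.54), zgc:173556 (-0.79 and -0.94), nr1d1 (-1.44) and hbbe3 (-2.82), and by more in tbx16l (-3.31). Those of per1b (-4.67), gch2 (-3.22), alas2 (-1.84) and tefa (-1.70 and -2.03) were closer to the named probe.

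**Figure D1:**
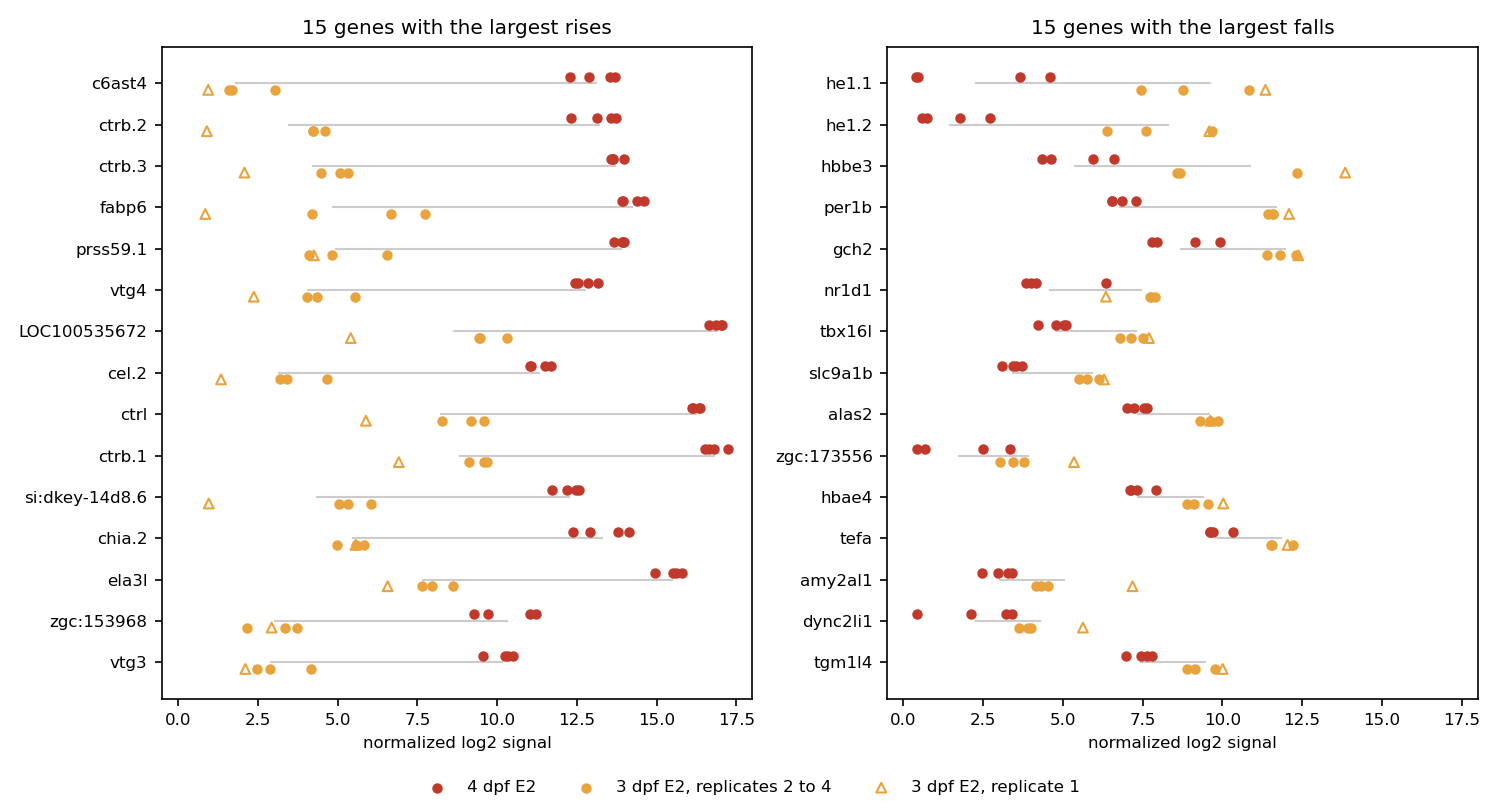
Normalized log2 signal (x axis) of the 15 genes with the largest rises and the 15 with the largest falls, with the 4 dpf E2 arrays as red points above the 3 dpf E2 arrays in orange (replicate 1 of 3 dpf as an open triangle) and a grey line between the group means. The rises reach 11.28 in c6ast4 and the falls reach 7.32 in he1.1, and replicate 1 of 3 dpf often lies at the outer end of its group.

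Of the 504 genes in 27 groups of cell type and pathway genes, 469 were well above background on all 4 arrays of at least 1 of the 2 days with E2. The exocrine pancreas had the highest median change of these groups. Of its 15 measured genes 14 rose and 0 fell (13 and 0 without the pair of replicate 1), where 11.4% of all named genes rose, and the median change was 6.58. Carboxypeptidase A1, cpa1, had 9.32, 9.52, 10.19 and 10.59 on the 4 dpf E2 arrays, against 2.95, 2.49, 3.00 and 2.78 on the 3 dpf E2 arrays, so that the days lay far apart and the replicates close together (change 7.10, SE 0.24, adjusted p = 4.77e-13). For the amylase amy2a, which splits starch, the signal was 13.41, 14.47, 14.68 and 14.78 at 4 dpf with E2, against 8.24, 7.21, 7.86 and 7.71 at 3 dpf with E2 (change 6.58). The trypsinogen prss1 had 17.18, 17.40, 17.06 and 17.32 at 4 dpf with E2, near the top of the scale of these arrays, against 11.46, 11.91, 12.23 and 11.84 at 3 dpf with E2. The transcription factor ptf1a, which specifies acinar cells, rose by 1.17 but had a change of 0.66 (adjusted p = 0.117) without the pair of replicate 1. In the endocrine pancreas 2 of 8 genes rose in both fits, the glucagon gene gcga (0.84) and pdx1 (0.71), a factor of pancreas and beta cells, and insulin, ins, changed by 0.58 without a call. The gene mnx1, a transcription factor of beta cells and motor neurons, fell by 0.72 (adjusted p = 0.0263) but had a change of -0.61 (adjusted p = 0.0886) without the pair of replicate 1.

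In the intestinal group 12 of 14 genes rose and 0 fell (11 and 0 without the pair of replicate 1; median change 2.51). They included the chitinases chia.1 (6.79) and chia.3 (4.04), the sodium-glucose transporter slc5a1 (4.74), and vil1 (3.03), which encodes villin of the brush border. After the normexp correction chia.3 changed by 0.89. For slc5a1 the signal was 8.56, 8.68, 9.31 and 9.47 at 4 dpf with E2, against 0.62, 5.64, 5.32 and 5.46 at 3 dpf with E2. Replicate 1 of 3 dpf was by far the lowest, and the change was 3.74 without its pair. Villin did not depend on that array, with 11.59, 12.37, 12.44 and 12.65 on the 4 dpf E2 arrays, against 8.50, 9.10, 9.81 and 9.52 on the 3 dpf E2 arrays. The fatty acid binding protein fabp2, a gene of enterocytes, rose by 2.37 (SE 0.17, adjusted p = 1.03e-08), whereas its relative fabp1b.1 changed by -0.08 (adjusted p = 0.691) at a signal that was already 15.74, 15.49, 14.91 and 14.98 on the 3 dpf E2 arrays.

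Of 18 liver plasma protein genes 8 rose and 0 fell (7 and 0 without the pair of replicate 1; median change 0.57). The rises were very unequal. Transthyretin, ttr, a carrier of thyroid hormone, had 8.98, 10.28, 9.53 and 9.36 on the 4 dpf E2 arrays, against 2.48, 4.32, 2.93 and 2.80 on the 3 dpf E2 arrays (change 6.40, SE 0.39, adjusted p = 1.04e-09). The liver fatty acid binding protein fabp10a, a marker of hepatocytes, had 13.34, 13.49, 14.42 and 14.11 at 4 dpf with E2, against 7.90, 8.26, 8.24 and 7.81 at 3 dpf with E2 (change 5.79). The vitamin D binding protein gc rose by 5.06. In contrast, serpinc1, the antithrombin gene, and plg, plasminogen, rose by 0.68 and 0.77, and the fibrinogen genes fgb and fgg changed by -0.18 and -0.07 without a call. Among 13 lipoprotein and lipid transport genes 3 rose and 2 fell. Hepatic lipase, lipca, rose by 2.52 and the low density lipoprotein receptor ldlra by 1.82, while the apolipoproteins apoa4a and apoeb fell by 1.57 and 0.68. After the normexp correction lipca changed by 0.60. Its call was lost after scaling to the 75th percentile (change 1.80, adjusted p = 0.0502).

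Of 20 genes of cholesterol synthesis 7 rose and 0 fell (7 and 0 without the pair of replicate 1; median change 0.41). The largest was hmgcra, the reductase that limits the rate of the pathway, with 9.08, 9.76, 8.54 and 8.43 at 4 dpf with E2, against 7.01, 7.96, 7.28 and 7.50 at 3 dpf with E2 (change 1.52, SE 0.22, adjusted p = 0.000118). It was followed by msmo1 (1.41), tm7sf2 (0.95) and sc5d (0.84), enzymes of the later steps, and by the sterol carrier stard4 (0.82). Genes of steroid and xenobiotic clearance rose in 16 of 29 cases and fell in 1 (15 and 1 without the pair of replicate 1; median change 0.64). The cytochromes cyp3a65 (4.42) and cyp2ad2 (4.22), the glucuronosyltransferase ugt1a1 (2.80) and the sulfotransferase sult2st3 (2.23) were among them. After the normexp correction cyp2ad2 changed by 1.405. For cyp3a65 the signal was 9.07, 10.03, 11.23 and 11.51 at 4 dpf with E2, against 5.80, 6.29, 6.03 and 6.04 at 3 dpf with E2. The gene that fell was cyp1b1 (-1.14, adjusted p = 0.00197), whose relative cyp1a, a classical target of the aryl hydrocarbon receptor, rose by 1.58.

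Of 26 visual pigment and phototransduction genes 14 rose and 1 fell (13 and 1 without the pair of replicate 1; median change 1.52). The green-sensitive opsin opn1mw2 had 13.09, 12.10, 12.53 and 12.57 on the 4 dpf E2 arrays, against 7.76, 9.23, 9.23 and 9.19 on the 3 dpf E2 arrays (change 3.72, SE 0.36, adjusted p = 7.77e-07). Its neighbouring copy opn1mw1 rose by 2.51 and the blue-sensitive opsin opn1sw2 by 2.36. Rod genes rose as well, with 3.53 for pde6ga, a subunit of the rod phosphodiesterase, and 3.04 for gnat1, rod transducin. The signal of gnat1 was 10.79, 10.90, 11.59 and 11.66 at 4 dpf with E2, against 5.69, 8.60, 9.31 and 9.19 at 3 dpf with E2, with replicate 1 of 3 dpf lowest again and a change of 2.36 without its pair. The cone opsin kinase grk7b fell by 0.92. Of 16 lens genes 2 rose and 1 fell (1 and 0 without the pair of replicate 1), and crygn1, a gamma crystallin, was the only one of these called in both fits (1.98).

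**Figure D2:**
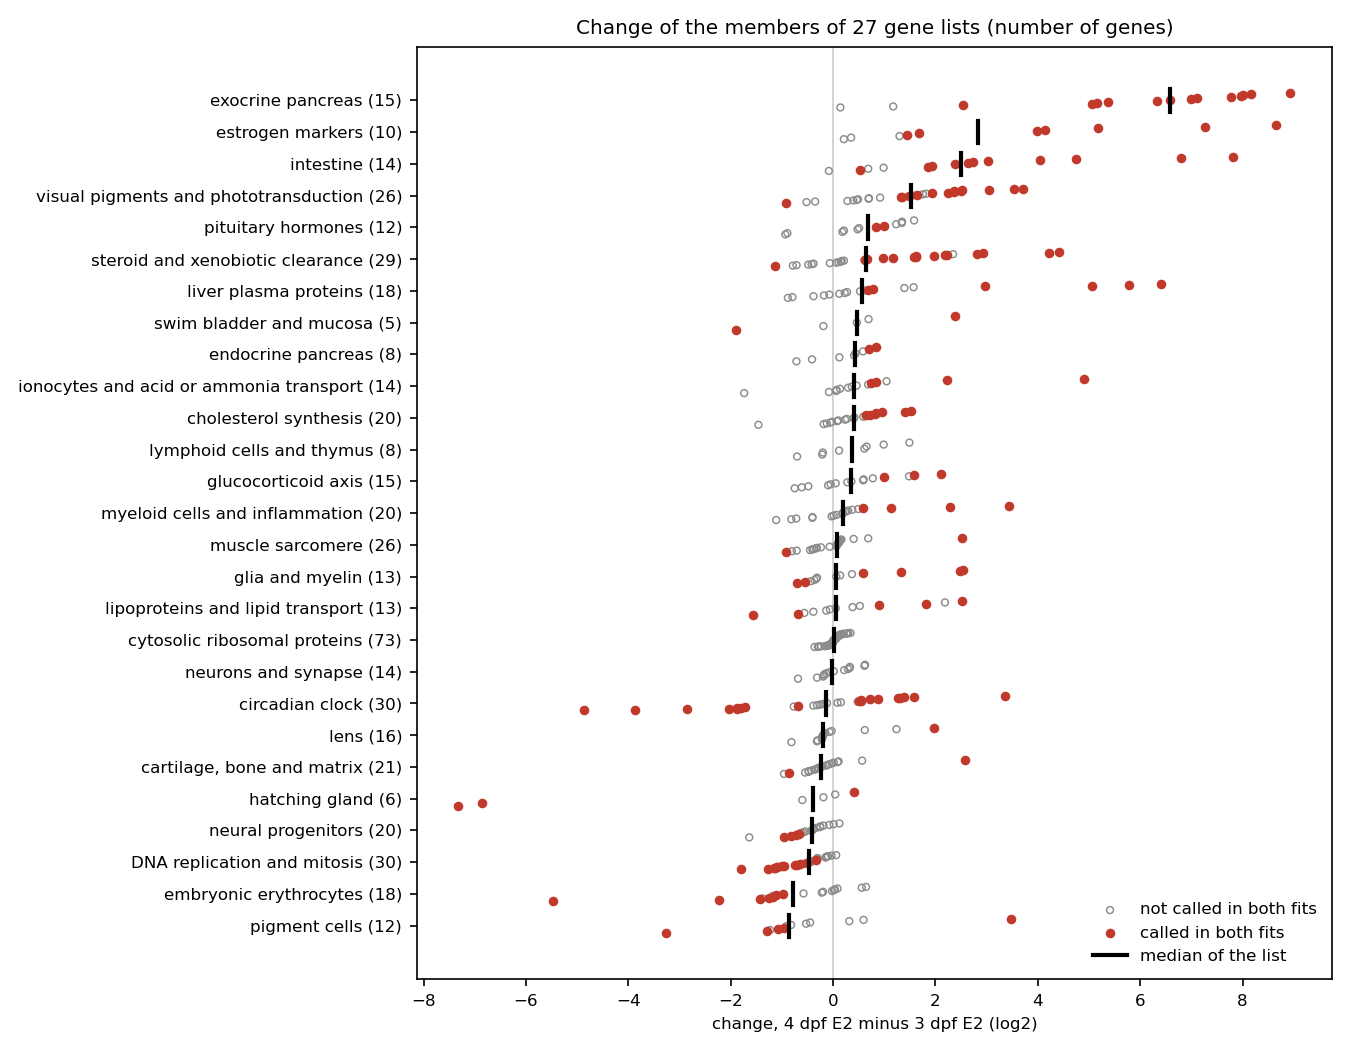
Change on the log2 scale, 4 dpf E2 minus 3 dpf E2 (x axis), of each member of 27 gene groups, ordered by their medians (black bars), with filled red points for genes called in both fits and open grey points for the others. The exocrine pancreas has the highest median, 6.58, and the 73 ribosomal protein genes lie between -0.36 and 0.34.

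Genes of DNA replication and mitosis moved the other way. Of 30 genes 0 rose and 16 fell (0 and 18 without the pair of replicate 1), where 10.1% of all named genes fell, and the median change was -0.47. The replicative helicase subunits mcm2, mcm3, mcm4, mcm5 and mcm6 fell by 1.096 to 1.264. For mcm5 the signal was 11.95, 11.55, 11.62 and 11.56 at 4 dpf with E2, against 13.04, 12.84, 12.69 and 12.73 at 3 dpf with E2 (change -1.16, SE 0.12, adjusted p = 1.92e-06). Cyclin E2, ccne2, fell by 1.79 but was well above background on 1 of 4 arrays at 4 dpf. The mitotic kinase gene aurka fell by 0.34, and cdk1 changed by 0.06 without a call. Of 20 neural progenitor genes 0 rose and 6 fell, among them the proneural factor neurog1 (-0.96) and the Notch ligands dla (-0.73) and dlb (-0.83). Among 14 genes of neurons and synapses 0 rose and 1 fell, and 0 were called without the pair of replicate 1. In glia and myelin 4 of 13 genes rose and 3 fell. The myelin gene plp1b had 9.48, 10.09, 10.24 and 10.12 on the 4 dpf E2 arrays, against 6.61, 7.50, 7.87 and 7.75 on the 3 dpf E2 arrays (change 2.55), and gfap, the filament protein of radial glia, fell by 0.70.

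Of 18 genes of embryonic erythrocytes 0 rose and 8 fell (0 and 7 without the pair of replicate 1; median change -0.78). The heme synthesis gene alas2 had 7.65, 7.02, 7.22 and 7.54 on the 4 dpf E2 arrays, against 9.62, 9.85, 9.29 and 9.62 on the 3 dpf E2 arrays (SE 0.21, adjusted p = 6e-07). The globins hbae1.1 and hbae3 fell by 1.44 and 1.24, whereas hbbe2 changed by -0.58 (adjusted p = 0.139). The globin genes are close copies and their probes may share signal. Among 20 genes of myeloid cells and inflammation 4 rose and 0 fell, led by the granulin grna.1 (3.43) and the iron-regulating hormone hepcidin, hamp (2.28). The 6 genes of the hatching gland held he1.1 and he1.2, which fell, and cd63, a membrane protein of secretory vesicles, which rose by 0.42.

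In muscle and skeleton few genes moved. Of 26 sarcomere genes 1 rose, the troponin tnni2a.1 (2.52), and 1 fell, the actin acta1a (-0.93). Of 21 genes of cartilage, bone and matrix 1 rose, spp1 (2.58), which encodes the bone matrix protein osteopontin, and 1 fell, hapln1a (-0.87). Among 14 genes of ionocytes and of acid or ammonia transport 5 rose and 0 fell. The ammonia channel gene rhcgb had 9.60, 10.06, 10.18 and 10.10 at 4 dpf with E2, against 0.83, 5.96, 6.65 and 6.87 at 3 dpf with E2 (change 4.91, and 3.66 without the pair of replicate 1), and the calcium channel gene trpv6 rose by 2.23. Of 12 pigment cell genes 1 rose and 5 fell. Next to gch2 the melanin synthesis gene dct (-1.29) and the melanocyte factor mitfa (-0.97) fell. The gene that rose was pnp4b (3.47), a purine nucleoside phosphorylase, which the study's tissue analysis placed in liver and intestinal bulb. Leaving out single E2 arrays or pairs took the count of falling pigment genes to between 1 (without replicate 2) and 5. In the swim bladder group of 5 genes the smooth muscle actin acta2 rose by 2.38, and the hyaluronan synthase has3, not well above background on any 4 dpf E2 array, was at least 1.23-fold lower there. Of 8 genes of lymphoid cells and thymus 0 were called, and 1 rose without the pair of replicate 1. Of the 73 cytosolic ribosomal protein genes 1 rose, rplp2 (0.26), which lost its call without that pair, and 0 fell.

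In the circadian clock rises and falls were both common. Of 30 clock genes 10 rose and 10 fell (11 and 10 without the pair of replicate 1), and 19 were called in both fits in the same direction. The smaller groups of glia and myelin (4 rises and 3 falls of 13) and of lipid transport (3 and 2 of 13) were mixed too. In this clock Clock and Bmal proteins switch on period, cryptochrome, nr1d and tef genes, some of which feed back on them. The period genes per1b and per3 fell by 4.86 and 3.86. For per3 the signal was 1.42, 3.52 and 0.89 in replicates 1, 2 and 4 of 4 dpf E2, of which 1 array was well above background (the spot of replicate 3 was an outlier), against 4.76, 6.04, 6.26 and 6.15 on the 3 dpf E2 arrays. The repressor gene nr1d1 had 3.85, 6.35, 4.00 and 4.14 at 4 dpf with E2, against 6.35, 7.73, 7.88 and 7.77 at 3 dpf with E2, so that replicate 2 of 4 dpf and replicate 1 of 3 dpf had the same value. The activator tefa fell by 2.03 (SE 0.12, adjusted p = 1.21e-09) and the repressor bhlhe40 by 1.87 (SE 0.14, adjusted p = 2.75e-08).

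Other clock genes rose. The cryptochrome gene cry3b had 7.60, 7.69, 7.93 and 7.66 on the 4 dpf E2 arrays, against 2.30, 4.60 and 5.25 on the 3 dpf E2 arrays of replicates 1 to 3 and a group mean of 4.36 on all 4 (change 3.36, and 2.77 without the pair of replicate 1). The gene rorca, a relative of the mammalian receptors that switch on Bmal1, rose by 1.57, the Clock relative npas2 by 1.39, cry3a by 1.26, bmal1b by 0.88 and bmal1a by 0.73. For bmal1a the 2 days were close but did not overlap, with 12.17, 12.22, 12.43 and 12.37 at 4 dpf with E2, against 11.54, 11.45, 11.63 and 11.66 at 3 dpf with E2. The light-responsive gene per2 changed by -0.22 (adjusted p = 0.508). The count of rising clock genes was 6 without replicate 2 and also 6 when arrays were scaled to their 75th percentile.

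**Figure D3:**
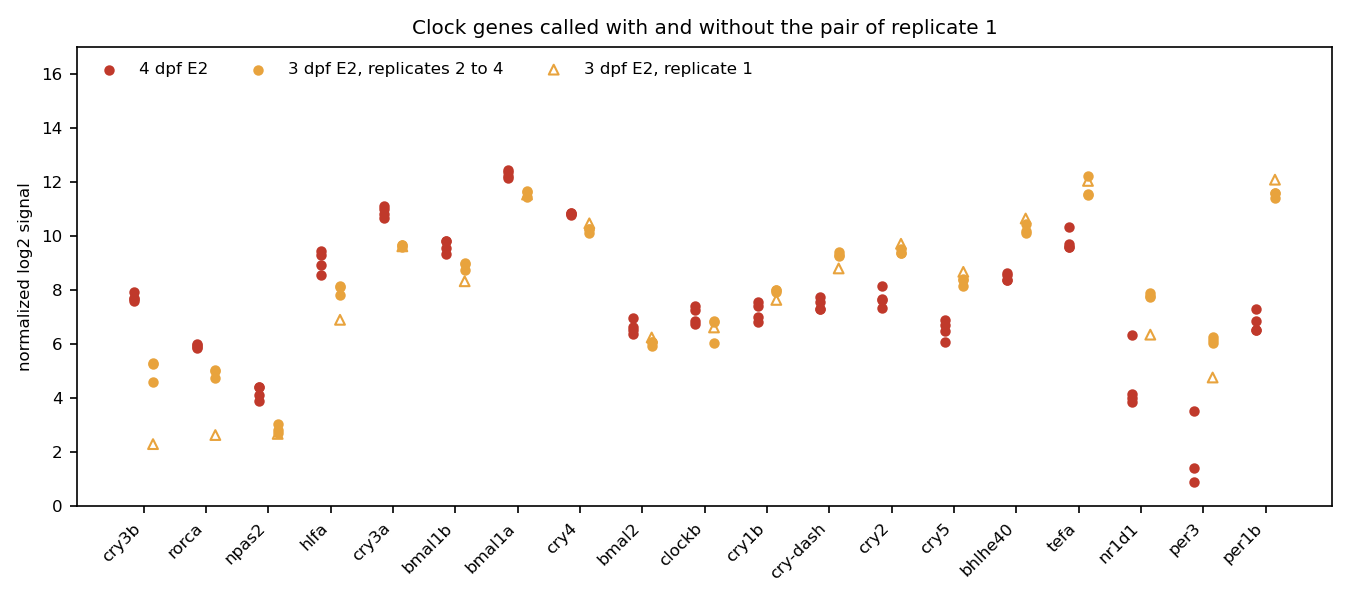
Normalized log2 signal (y axis) of the 19 clock genes called with and without the pair of replicate 1, ordered by their change, with the 4 dpf E2 arrays in red left of the 3 dpf E2 arrays in orange (replicate 1 of 3 dpf as an open triangle). The genes at the left, led by cry3b, rose, and those at the right, down to per1b, fell.

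Of 15 genes of the glucocorticoid axis 5 rose and 0 fell (4 and 1 without the pair of replicate 1), and 3 of these were called in both fits. They were klf9 (2.104) and fkbp5 (1.58), both induced by the glucocorticoid receptor, and pomca (0.99), the precursor of the hormone ACTH. For klf9 the signal was 8.03, 8.65, 7.81 and 7.78 at 4 dpf with E2, against 7.22, 5.97, 5.29 and 5.36 at 3 dpf with E2. For fkbp5 it was 9.95, 10.44, 11.18 and 11.40 at 4 dpf with E2, against 8.96, 9.60, 9.06 and 9.03 at 3 dpf with E2. The days overlapped for neither gene. Both belong to the genes that the study reports as lowered by E2. The gene that fell without the pair of replicate 1 was cyp17a1, an enzyme of steroid synthesis (-0.92, adjusted p = 0.00437, against -0.61 and 0.0528 with all arrays). The count of rises was 3 without replicate 4 and 3 without replicate 3 of the 4 dpf E2 group. In the pituitary group of 12 genes 3 rose and 0 fell, where 11.4% of all named genes rose. Of these pomca and gnrh2 (0.84), a releasing hormone of the midbrain, were called in both fits. Only 5 of the 12 genes were well above background on all 4 arrays of at least 1 day.

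Among the estrogen markers 7 of 10 genes rose and 0 fell (7 and 0 without the pair of replicate 1; median change 2.83). The study picked several of them on these same arrays, from the comparison of E2 with DMSO, so that their count is not independent evidence. The vitellogenin vtg4 had 13.16, 12.83, 12.53 and 12.44 on the 4 dpf E2 arrays, against 2.37, 5.56, 4.05 and 4.35 on the 3 dpf E2 arrays, a rise of 8.66 (SE 0.40, adjusted p = 2.18e-11), of 8.04 without the pair of replicate 1 and of 6.17 after the normexp correction. The brightest probe of vtg1 had 14.19, 13.30, 13.29 and 13.27 at 4 dpf with E2, against 8.34, 9.10, 7.81 and 8.09 at 3 dpf with E2 (change 5.18, SE 0.25, adjusted p = 5.04e-11), and its other 3 probes changed by 5.05, 5.29 and 5.37. For vtg3 the signal was 10.50, 9.57, 10.35 and 10.25 at 4 dpf with E2, against 2.11, 4.16, 2.46 and 2.90 at 3 dpf with E2, where 3 of 4 arrays were well above background (change 7.26). The genes vtg5 and vtg2 rose by 3.98 and 4.14. In vtg2 the 3 dpf E2 arrays had 4.88, 1.56, 0.83 and 0.62, of which 1 was well above background, below the 7.47, 5.63, 5.99 and 5.38 of the 4 dpf E2 arrays. The vitellogenin genes resemble each other and their probes may share signal.

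The other estrogen markers moved much less. The estrogen receptor gene esr1 had 4.94, 4.22, 4.68 and 4.51 on the 4 dpf E2 arrays, against 4.44, 2.93, 2.86 and 2.38 on the 3 dpf E2 arrays, where replicate 1 lay within the range of 4 dpf. It rose by 1.44 (SE 0.46, adjusted p = 0.0433), a call that was lost without the block (adjusted p = 0.111), after scaling to the 75th percentile (change 1.03, adjusted p = 0.277) and without replicate 2, 3 or 4. The coagulation factor gene f13a1a.1 rose by 1.68 (adjusted p = 0.0153), and by 1.03 without the pair of replicate 1. After scaling to the 75th percentile its change was 0.74 (adjusted p = 0.0716). The brain aromatase gene cyp19a1b had 11.94, 11.77, 12.07 and 11.81 at 4 dpf with E2, against 10.54, 10.24, 10.84 and 10.79 at 3 dpf with E2. The days did not overlap, but its change of 1.297 (SE 0.50) had an adjusted p of 0.092. After the normexp correction it was 1.26 with an adjusted p of 0.00167. In the fit of the 8 E2 arrays alone the change was 1.26 with an adjusted p of 0.0736, again without a call. On the 3 dpf DMSO arrays, which entered the estimate of the spread over all 28 arrays, the signal was 4.15, 7.87, 4.54 and 4.35. What kept this gene from a call was not tested. The receptors esr2a and esr2b changed by 0.21 and 0.35 (adjusted p = 0.735 and 0.374).

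**Figure D4:**
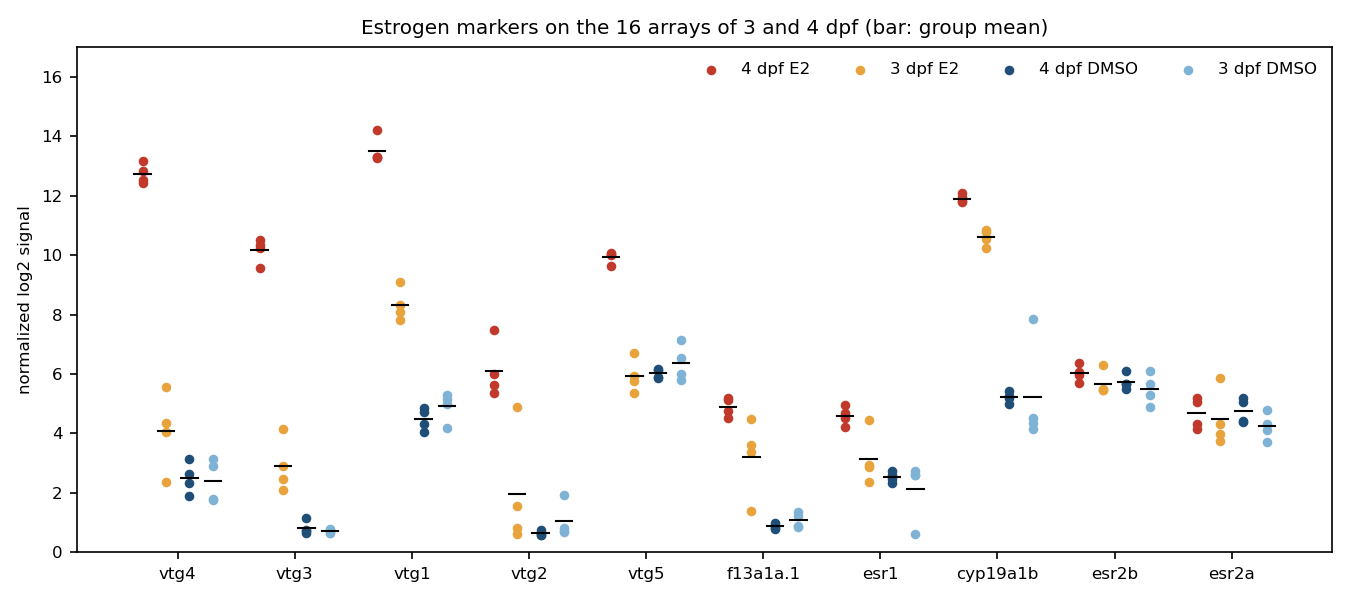
Normalized log2 signal (y axis) of the 10 estrogen markers on the 4 dpf E2, 3 dpf E2, 4 dpf DMSO and 3 dpf DMSO arrays (1 point an array, 4 a group, black bars for the means). The vitellogenins stand highest at 4 dpf with E2, and esr2a and esr2b lie at similar signals in all 4 groups.

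For most of these genes a different change with E2 than with DMSO was not shown. In DMSO embryos 2045 probes rose (4.69%) and 2678 fell (6.14%) at 4 dpf against 3 dpf, and of the named genes 969 rose (8.82%) and 1163 fell (10.6%). The 2 changes share no array. In the exocrine pancreas the median change was 6.58 with E2 and 6.78 with DMSO, in the intestinal group 2.51 with E2 and 2.39 with DMSO, and in DNA replication and mitosis -0.47 with E2 and -0.48 with DMSO. For per1b it was -4.86 with E2 and -4.88 with DMSO, and the difference was 0.02 (SE 0.26). The test of the difference itself, the change with E2 minus the change with DMSO, called 23 of 43603 probes (0.0527%), 22 with a higher (0.0505%) and 1 with a lower change (0.00229%) with E2. Its median SE was 0.39, and 1414 of the 43603 probes had an unadjusted p under 0.05. This is a smaller share than the 0.05 that such a threshold passes where no probe differs. Without the E2 pair of replicate 1 it called 24 probes (0.055%), 22 higher (0.0505%) and 2 lower (0.00459%), and 1 of the 23 was lost.

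Of these 23 probes 8 belonged to vitellogenins, and 13 had no gene name in the tables used here. The change of vtg4 was 8.66 with E2 (difference from that with DMSO 8.57, SE 0.56, adjusted p = 1.05e-07). On the DMSO arrays its signal was 2.62, 3.14, 2.32 and 1.89 at 4 dpf and 3.13, 2.90, 1.78 and 1.80 at 3 dpf, and 1 of these 8 arrays was well above background. For vtg3 and vtg2 it was 0 of 8. The differences of these 3 genes are therefore set against DMSO signals near background. The difference was 7.15 for vtg3, 5.61 for vtg1 and 4.34 for vtg5. For vtg2 it was 4.55 (SE 0.89) with an adjusted p of 0.0998, which was 5.46e-06 without the E2 pair of replicate 1. The change of fkbp5 was 1.58 with E2 and -0.24 with DMSO (difference 1.82, SE 0.55, adjusted p = 0.94). That of fabp10a was 5.79 with E2 and 3.59 with DMSO (difference 2.20, SE 0.66, adjusted p = 0.94). For fabp6 the change was 9.35 with E2 and 6.58 with DMSO (difference 2.76, SE 1.25, adjusted p = 0.94). The study reports from these arrays that E2 lowered these genes in the younger embryos, and also klf9, pnp4b, rhcgb and slc6a19b. Their rises with E2 may therefore start from a lowered signal, which was not tested here.

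The gene with a smaller rise under E2 was ahsg2, which encodes a fetuin of the blood plasma. Its signal was 3.52, 4.91, 3.54 and 3.11 on the 4 dpf E2 arrays, of which 3 were well above background, against 0.77, 0.74, 0.82 and 0.85 on the 3 dpf E2 arrays, of which 1 was. On the DMSO arrays it was 5.93, 6.69, 5.87 and 6.49 at 4 dpf, against 0.78, 1.11, 0.93 and 0.77 at 3 dpf, where no array was well above background. At 4 dpf the E2 and the DMSO arrays did not overlap. With DMSO the gene was at least 15-fold higher at 4 dpf than at 3 dpf, a bound that holds only for signals without the normexp correction. With E2 the fitted change was 2.98, or 0.35 after the normexp correction. The same correction made the difference between E2 and DMSO smaller too, -0.77 (adjusted p = 0.000566). The fitted difference of -2.37 (SE 0.34, adjusted p = 0.00392, and 0.0274 without the E2 pair of replicate 1) rests on dim 3 dpf signals and is no exact size. Its call was lost with the 3 and 4 dpf arrays alone (adjusted p = 0.182), without replicate 1, 3 or 4 (0.0759, 0.129 and 0.131) and after scaling to the 75th percentile. Its other probe changed by -0.01 with E2. The remaining gene, zgc:113054, changed by 0.35 with E2 and by -0.99 with DMSO (difference 1.34, SE 0.24, adjusted p = 0.0496), and lost its call without that pair (adjusted p = 0.12).

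**Figure D5:**
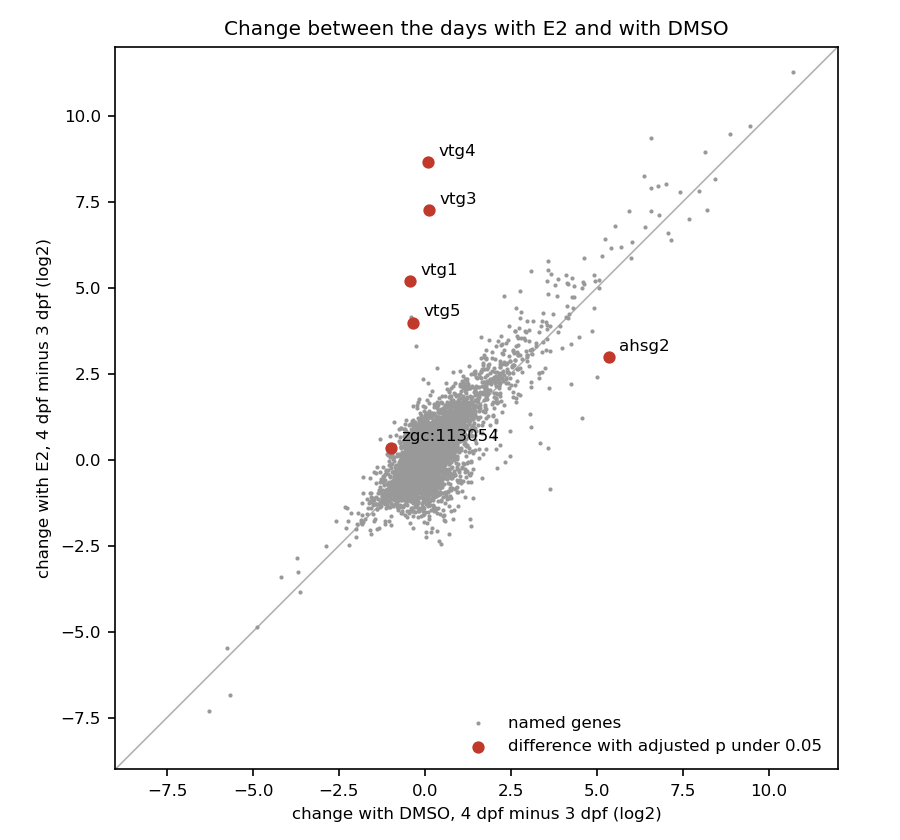
Change between the days with E2 (y axis) against the change with DMSO (x axis), both 4 dpf minus 3 dpf on the log2 scale, for 10986 named genes (grey) and the 6 genes whose difference had an adjusted p under 0.05 (red), with the line of equal change. The vitellogenins vtg4, vtg3, vtg1 and vtg5 lie above the line near 0 on the DMSO axis, and ahsg2 lies below it.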

How the data were processed

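The authors deposited the scanner output of 28 single-color arrays. Its processed signal is a linear intensity, corrected by the software for background and for a spatial trend. Per the file headers the software was Agilent Feature Extraction 10.7.3.1, whereas the submitters' processing notes name version 11.0.1.1. The series-wide value table that the authors deposited repeats these intensities (1266160 of 1266160 equal within a relative tolerance of 1e-06). The normalization, log transformation and removal of replicate effects in the study's methods were not yet part of them.

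The 1417 control spots and the spots marked as outliers were dropped. After quantile normalization of the log2 signals, spots of a probe were averaged, and the 8 groups were fitted, with the 4 replicate numbers as a block, in limma 3.58.1 (R 4.3.3). The groups share 1 estimate of the spread, and precision is limited by how many arrays there are. Tests covered 43603 probes. Names came from RefSeq accessions (15163 of 19212 matched the RefSeq gene table of assembly GRCz12tu) and from the study's probe names (558 more), which gave 10986 genes. Of 689 gene names in the lists 510 matched. Genes named in the text are the 15 largest rises and 15 largest falls called in both fits, with the same direction in 4 of 4 pairs and well above background on every array of a group, up to 6 called members per list, all estrogen markers, and the genes whose difference between E2 and DMSO was called (6, under a limit of 10). Further list members, with or without a call, were named after their values were seen. Genes and lists were chosen with earlier results of these data known. For a gene not well above background on any array of a day, the fold is a lower bound, against the lowest signal well above background on each array. The alternatives were another scaling, background correction (normexp, offset 50, on the median signal), variance model or threshold, no block, fewer arrays, array weights, a filter on dim probes, and slide or scan batch as a block. The script for the fit was tested on simulated data. Figures were drawn with matplotlib.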

Additional observations from a re-analysis of the deposited data

Results flagged for a closer look

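Groups of 4 arrays were searched for an array whose gap to its nearest neighbour exceeded Dixon's critical value for 4 values, as a share of the range of the group. Chance flags about 1 in 20 groups, and 11 of 82 were found. The share of spots well above background was 96.1% on replicate 1 of the 3 dpf E2 group. The same array was low for ctrb.2 (0.90, others 4.21 to 4.60) and nr1d1 (6.35, others 7.73 to 7.88), and high for amy2al1 (7.18, others 4.15 to 4.53) and esr2b (6.29, others 5.46 to 5.48). In the 4 dpf E2 group replicate 1 was low for prss59.1 (13.65, others 13.92 to 13.96) and high for tefa (10.32, others 9.60 to 9.71) and vtg1 (14.19, others 13.27 to 13.30). Replicate 2 was high for nr1d1 (6.35, others 3.85 to 4.14) and low for vtg5 (9.63, others 9.99 to 10.06), and replicate 4 was high for ctrb.3 (13.97, others 13.58 to 13.64). All of these are normalized log2 signals except the share of spots.

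The change between the days differed between E2 and DMSO embryos, by limma's test of the difference itself with Benjamini-Hochberg adjustment, for 6 named genes. The difference was 8.57 for vtg4, 7.15 for vtg3, 5.61 for vtg1, 4.34 for vtg5, 1.34 for zgc:113054 and -2.37 for ahsg2. In each of the 4 vitellogenins the change with E2 was positive in 4 of 4 pairs, which is no separate evidence, since they were picked on these same arrays. The study also lists ahsg2 (under the name ahsg) and zgc:113054 among the genes altered by E2 at 4 dpf on these arrays. Their calls are therefore not independent of that report either.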

How the results depend on the processing

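Without the replicate block 2738 probes were called with all arrays and 2125 without the pair of replicate 1, against 5730 and 5572 with it, and with the 3 and 4 dpf E2 arrays alone 250 and 599 were called. Leaving out a single array or a pair gave 3902 to 6168 calls with all arrays and 2254 to 5365 without the pair of replicate 1. The low end of both came without replicate 4. Among these, without the pair of replicate 1, 3271 calls were left without replicate 2, 3331 without replicate 2 of 3 dpf, 3059 without replicate 4 of 3 dpf and 3136 without replicate 4 of 4 dpf. The difference between E2 and DMSO had 23 calls, 215 at the threshold of the study (unadjusted p of at most 0.01 and a fold change of at least 1.4), 13 with the 3 and 4 dpf arrays alone, and 16 to 26 with an array or pair left out. Scaling to the 75th percentile moved the median change of all probes to -0.22 with all arrays and 0.06 without the pair of replicate 1. Without that pair it gave 4747 rises and 2336 falls against 2469 and 3103, and with all arrays it turned the direction of 6 called probes. Of 2711 values of 129 single genes under the alternatives, 189 kept their direction but lost the call, 82 of them with the 3 and 4 dpf E2 arrays alone, 2 gained one and 0 turned. The normexp background correction ended 6 of the calls among 123 genes and made 38 of the changes more than 1.5 times smaller on the log2 scale, among them vtg3 (4.09), ttr (3.31), cpa1 (4.06), he1.2 (-2.69) and per3 (-0.85). The median fell to 0.76 in the intestinal group, against 2.51, and to 1.16 in the estrogen markers, against 2.83. Calls lost under it were those of zgc:173556, dync2li1, ccne2, has3, mitfa and mep1a.1. In the fit without the block 4 liver, 4 cholesterol and 3 ionocyte genes rose and 9 replication and 2 pigment genes fell. The replicate number entered the fit as a block after the study's methods. Same-numbered arrays of the 2 days deviated together with r of 0.171, 0.214, 0.313 and 0.0662 across probes, and each 4 dpf array correlated best with the 3 dpf array of its own number. The causes were not tested.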

Other observations

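Gene families picked by the start of their symbols after values had been seen, with no test of the family, showed further groups of genes at 4 dpf against 3 dpf in E2 embryos. Only some of the families counted are described. Of those left out, some moved little, such as proteasome subunits (1 rise and 2 falls of 41) and potassium channels (5 and 0 of 34). Others moved more, such as cyp genes (27 and 3 of 58). Of 38 hox genes, which pattern the body axis, 0 rose and 17 fell, with a median change of -0.56 (0 and 19 without the pair of replicate 1), led by hoxc12b (-0.99). Of 26 genes of splicing factors (srsf) and small nuclear ribonucleoproteins (snrp) 1 rose and 15 fell (median change -0.40). Tubulin genes fell in 7 of 18 cases and rose in 0 (4 and 0 without the pair of replicate 1), with the largest fall called in both fits in tubb5 (-0.98). Of 213 solute carrier genes 48 rose and 14 fell, among them slc6a19b (5.50), an amino acid transporter, and slc34a2a (5.27), a phosphate transporter. Claudins, the proteins of tight junctions, rose in 8 of 33 cases and fell in 1, led by cldn15b (4.48). Among 10 aquaporins, the water channels, 5 rose and 0 fell, and among 18 keratins 6 rose and 0 fell. In DMSO embryos the medians were similar in sign, with -0.47 for the hox genes, -0.42 for the splicing genes and 0.80 for the aquaporins. Over all named genes 11.4% rose and 10.1% fell with E2.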
